A study of Mus musculus with 12 samples.

Results

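The aminoacyl-tRNA synthetases are the enzymes that join each amino acid to its transfer RNA (tRNA) before translation. The 36 genes described here were found by their symbols among the 22609 genes of the count tables, and all 36 were present. They comprise 20 genes with symbols of cytosolic enzymes and 16 with symbols of mitochondrial enzymes, whose names end in 2. All 36 passed the filter on low counts and were among the 13684 genes tested. The 12 livers, 3 per genotype, were taken from naive adult animals of a cross between Alb/AEG-1 and Alb/c-Myc heterozygotes. The 4 genotypes were wild type (WT, neither transgene), AEG1 (Alb/AEG-1 alone), MYC (Alb/c-Myc alone) and AEG1_MYC (Alb/AEG-1/c-Myc). Alb stands for the albumin promoter, which drives expression in hepatocytes, so other liver cells do not carry the transgene's expression by design. The labels give no sex, no age beyond adult, no litter and no batch. Nothing in the labels says more about how the mice of a genotype were related, and the tests treat the livers as independent. P values set a difference between genotypes against the spread between livers within genotypes. The series asks about cooperation of both transgenes in liver cancer. In bulk liver, fewer cells of a type and less RNA per cell cannot be told apart.

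Each cytosolic synthetase serves 1 amino acid, except Eprs, whose protein charges both glutamate and proline tRNAs. Farsa and Farsb encode the subunits of the phenylalanine enzyme. In animal cells the enzymes of 8 genes (Dars, Eprs, Iars, Kars, Lars, Mars, Qars and Rars) assemble with the scaffold proteins of Aimp1, Aimp2 and Eef1e1 into the multisynthetase complex. The mitochondrial enzymes are encoded in the nucleus, imported, and charge the tRNAs used to make respiratory chain proteins, while Gars and Kars each supply both compartments. Several cytosolic synthetase genes are known targets of ATF4, the transcription factor of the integrated stress response, which binds the C/EBP-ATF response element (CARE). c-Myc is known to promote translation capacity and binds the E-box CACGTG.

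Promoter sequences were looked up because both factors bear on how synthetase genes are regulated. RefSeq windows (build GRCm38.p6, 250 bases before to 50 bases after the start site) were matched for 27 of the 36 genes. Cars, Hars, Lars, Nars, Rars, Vars, Wars, Hars2 and Pars2 were unmatched. The letters TGATGNAAN, for CARE, were searched on both strands and occurred in 5 of the 27 genes (18.5%), against 4.5% of the 27025 genes with windows. The 5 were all cytosolic: Aars, Gars, Iars, Tars and Yars, of 13 cytosolic genes matched. CACGTG reads the same on both strands and occurred in Aars, Ears2, Farsb, Iars and Tars (18.5%, against 8.09% of all genes). No CARE match overlapped a CACGTG match. A match is a description of letters and not a site of binding. The CARE matches before the start site in Gars and Tars are printed below because AEG1_MYC livers differed from AEG1 livers in opposite directions for these genes, without overlap. This pair was thus chosen with its values known. Aars also had a CARE match before the start site, with its first base at -113, which is not printed. Capitals mark the 9 letters of the match, which reads TGATGNAAN on the opposite strand, and each window has 30 bases, 5′ to 3′ on the gene's strand.
Gars, chr6:55037960-55037989, plus strand: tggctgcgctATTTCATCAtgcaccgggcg
Tars, chr15:11399666-11399695, minus strand: tagggcggggccaggagtcccGTTGCATCA

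Libraries held 21931197 to 40552316 reads in genes, of which 49364 to 95273 fell in the 36 synthetase genes. The lowest count of any member in any library was 57 (Mars2). Values are CPM, that is read counts scaled to a common library size with TMM factors, given per library in the order of replicates 1, 2 and 3, or as mean ± SD (n = 3). Myc, the check on the MYC label, was at 2.26 to 4.73 CPM in WT and AEG1 libraries, 23.4 to 53.8 CPM in MYC and 58.4 to 165 CPM in AEG1_MYC libraries. Mtdh, the mouse gene of AEG-1, was at 88.95 to 112 CPM in all 12 and does not check the AEG1 label, because the species of the transgene is not labelled. All 6 hepatocyte markers had reads in each genotype. Their summed level was 98580 to 107800 CPM (WT), 75820 to 85280 (AEG1), 63980 to 81370 (MYC) and 33410 to 68590 (AEG1_MYC), and the part of this in the synthetase values was not tested. The AEG1_MYC libraries, replicate 2 most, stand apart from each other: within that genotype log2 CPM correlated at 0.933 to 0.965 between libraries (Pearson, across genes), and within the other genotypes at 0.973 to 0.988.

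Tars, the threonine enzyme, had the highest level of the cytosolic members per kilobase of coding sequence in WT liver, at 151 ± 33.7 CPM per kb. Aars (alanine) followed at 103 ± 6.63, Nars (asparagine) at 99.5 ± 10.5 and Dars (aspartate) at 83.6 ± 3.67 CPM per kb. The WT libraries of Aars (95.3 to 107) and Nars (87.9 to 108.5) overlap, so the order of those 2 is not separated. A gap followed, since the fifth gene, Sars (serine), was at 44.1 ± 6.28 CPM per kb. The valine enzyme Vars was the lowest at 9.95 ± 1.46 CPM per kb, below Iars (isoleucine) at 13.9 ± 2.05. Reads also fall in untranslated regions, so genes with long ones are overstated on this scale.

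Of the mitochondrial members, Lars2 (leucine) was the highest at 82.0 ± 16.5 CPM per kb in WT, Iars2 (isoleucine) was next at 33.3 ± 2.07 and Hars2 (histidine) was at 24.8 ± 0.475. Pars2 (proline) and Mars2 (methionine) were the lowest at 2.95 ± 0.692 and 2.01 ± 0.295 CPM per kb. Lars2 and Iars2 kept ranks 1 and 2 in all 4 genotypes, also per kb of the whole transcript, where Hars2 had rank 5 in WT. Among cytosolic members the order at the top differed in AEG1_MYC, where Tars took rank 4 at 56.6 ± 14.7 CPM per kb, behind Aars at 107 ± 13.1, Nars at 96.1 ± 4.82 and Dars at 80.4 ± 4.44. Aars (97.2 to 121.9) and Nars (92.25 to 101.5) overlap there. Per kb of the whole transcript Tars was also first in WT, AEG1 and MYC, but had rank 6 in AEG1_MYC, where Nars had rank 1 and Aars rank 3.

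**Figure D1:**
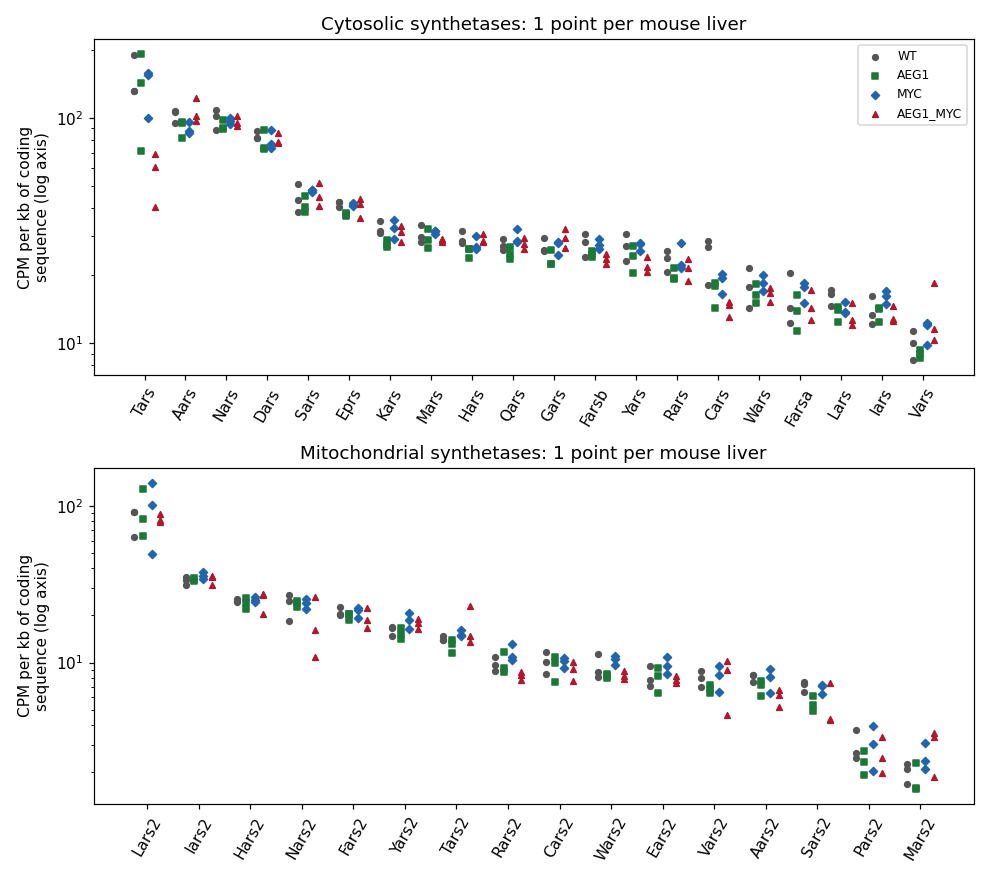
Level of each synthetase gene in CPM per kb of coding sequence on a log axis, 1 point per liver, with cytosolic genes in the upper panel and mitochondrial genes in the lower, ordered by mean. Tars heads the cytosolic panel with its 3 AEG1_MYC points lowest, and Lars2 heads the mitochondrial panel with a wide spread in AEG1 and MYC.

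Most members varied little between livers. The coefficient of variation over the 12 libraries was 5.68% for Iars2, 6.31% for Nars and 6.37% for Eprs, the lowest of the 36. Tars (42.6%), Lars2 (29.3%), Mars2 (29.0%), Cars (25.5%, cysteine) and Vars (24.9%) were the most variable. Lars2 stood at 247, 248 and 170.2 CPM in the WT livers. In AEG1 it was at 173, 222 and 346.5 CPM, in MYC at 272, 378 and 133, and in AEG1_MYC at 221, 215 and 239. All 4 genotypes overlap for Lars2, and its lowest and highest libraries were both MYC livers.

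Tars showed the largest difference of any member in AEG1_MYC against WT. It stood at 284, 410.4 and 284 CPM in WT and at 310.2, 415 and 154 CPM in AEG1. MYC livers had 342, 336 and 215 CPM, and AEG1_MYC livers 131, 87.5 and 149.5 CPM. Every AEG1_MYC library lay below all 9 others. The nearest was AEG1 replicate 3, at 154 CPM. The log2 fold change against WT was -1.41 ± 0.35 (SE), a level 0.376 times that of WT, with a 95% interval of -2.18 to -0.64. Against AEG1 it was -1.26 ± 0.35 and against MYC -1.28 ± 0.35. None of the 3 passed in edgeR (adjusted p = 0.122, 0.131 and 0.177), while DESeq2 called each (adjusted p = 0.00399, 0.0127 and 0.0146). These 3 comparisons share the AEG1_MYC libraries. Without AEG1_MYC replicates 1 and 2 the difference from WT was -1.12 (adjusted p = 0.851, edgeR), with 1 library left in that genotype.

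Tars also differed between livers of the same genotype, as did a clock score. The score is the mean log2 CPM of 8 clock genes that peak towards evening minus that of 4 that peak towards morning. WT livers scored 0.71, -1.46 and 1.95, AEG1 livers -0.83, -2.95 and 4.42, MYC livers -3.17, -3.26 and 3.13, and AEG1_MYC livers 3.89, 1.97 and 4.03. The lowest Tars level in AEG1 and in MYC was in replicate 3, which had the highest score of its genotype, and the highest Tars level in WT and in AEG1 was in replicate 2, which had the lowest. In AEG1_MYC the lowest Tars level was in replicate 2, which had the lowest score there. At nearly equal scores, with 1 liver each, WT replicate 3 (1.95) had 284 CPM and AEG1_MYC replicate 2 (1.97) had 87.5 CPM. In MYC the highest Tars level was in replicate 1 and the lowest score in replicate 2. With the score as a covariate the Tars difference of AEG1_MYC was -0.98 from WT, -0.72 from AEG1 and -0.64 from MYC (adjusted p = 0.201, 0.306 and 0.599, edgeR). With 1 surrogate variable the difference from WT was -0.82 (adjusted p = 0.813). All 3 AEG1_MYC livers scored 1.97 to 4.03, so score and genotype cannot be fully told apart here. The labels give no time of collection, and the part of the score in the Tars values was not tested.

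**Figure D2:**
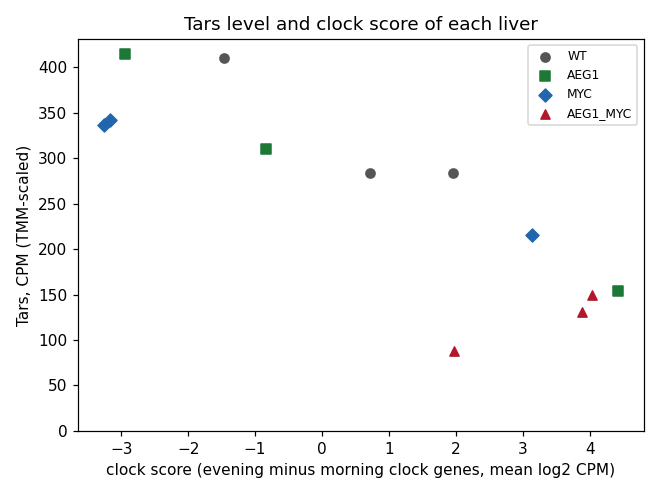
Tars level (CPM, linear axis from 0) against the clock score of each liver (log2 scale), with 1 point per mouse and colours for genotype. The AEG1_MYC points lie at scores of 1.97 to 4.03 and at the lowest Tars levels, and AEG1 replicate 3 at a score of 4.42 lies next to them at 154 CPM.

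Cars, the cysteine enzyme, had the lowest p of the 36 members against WT in each of the 3 transgenic genotypes. WT livers had 71.1, 66.8 and 45.3 CPM and AEG1 livers 46.3, 44.55 and 35.95 CPM. MYC livers had 50.6, 48.4 and 41.3 CPM, and AEG1_MYC livers 37.9, 32.6 and 36.9 CPM. AEG1_MYC lay below WT and below MYC without overlap, and WT replicate 3 lay within the range of AEG1 and MYC. The log2 fold changes against WT were -0.53 ± 0.17 in AEG1 (adjusted p = 0.9997), -0.39 ± 0.17 in MYC (adjusted p = 0.999) and -0.77 ± 0.17 in AEG1_MYC (adjusted p = 0.0959), by edgeR with Benjamini-Hochberg adjustment. DESeq2 called the last of these (adjusted p = 0.00344), a level 0.586 times that of WT. Without AEG1_MYC replicates 1 and 2 it was -0.72 (adjusted p = 0.795, edgeR). The 3 share the WT libraries, among which WT replicates 1 and 2 were the highest of all 12.

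The comparison of AEG1_MYC with WT covers both transgenes at once. Besides Tars and Cars, the groups did not overlap for the mitochondrial alanine and arginine enzymes, Aars2 and Rars2. Aars2 stood at 24.7, 24.7 and 22.0 CPM in WT and 22.5, 21.2 and 17.9 in AEG1, then 18.9, 23.7 and 26.6 in MYC and 15.4, 18.4 and 19.55 in AEG1_MYC. Rars2 stood at 16.7, 18.9 and 15.3 CPM in WT and 20.1, 16.01 and 15.1 in AEG1, then 18.9, 18.1 and 22.8 in MYC and 14.4, 13.4 and 15.2 in AEG1_MYC. For Rars2 the nearest WT and AEG1_MYC livers were both replicate 3, at 15.29 and 15.18 CPM, and AEG1 replicate 3 lay below them. Their log2 fold changes were -0.42 ± 0.15 and -0.24 ± 0.14 (adjusted p = 0.196 and 0.394, edgeR). Those 4 of 36 members, all lower, make 11.1%, against 19.5% of all genes whose groups did not overlap in this comparison and 9.65% that were lower without overlap. In edgeR 0 of the 36 were called, where 0.263% of all genes were. At an unadjusted p under 0.05 were 5 members (13.9%), against 17.2% of all genes. DESeq2 called 2 members, where it called 4.76% of all genes, and limma 0, where it called 0.168%. At an adjusted p under 0.1, edgeR called Cars alone, where it called 1% of all genes. The median log2 fold change of the 36 was -0.06, with 25 lower and 11 higher, where 51.6% of all genes were higher and their median was 0.01. Without WT replicate 2 the members' median was 0.00073. Values ran from -1.41 (Tars) to 0.54 (Mars2).

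Replicates of AEG1_MYC disagreed in several members. Vars stood at 38.4, 43.6 and 32.4 CPM in WT and 34.35, 35.8 and 32.9 in AEG1, then 37.8, 47.3 and 46.4 in MYC and 44.4, 71.1 and 39.6 in AEG1_MYC. The mitochondrial threonine enzyme Tars2 stood at 31.97, 30.13 and 30.4 CPM in WT and 30.06, 28.5 and 24.8 in AEG1, then 31.98, 32.3 and 34.8 in MYC and 29.3, 49.9 and 32.0 in AEG1_MYC. In both, AEG1_MYC replicate 2 held the highest level of the 12 livers, and AEG1_MYC overlapped WT. The differences from WT were 0.44 ± 0.20 for Vars (adjusted p = 0.294, edgeR) and 0.27 ± 0.17 for Tars2 (adjusted p = 0.445). Without AEG1_MYC replicate 2 the Vars value was 0.14.

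Mars2, the member of fewest reads, stood at 3.69, 3.94 and 2.95 CPM in WT and 4.04, 2.77 and 2.79 in AEG1, then 4.145, 3.71 and 5.38 in MYC and 5.88, 6.25 and 3.27 in AEG1_MYC. Replicate 3 of AEG1_MYC lay within the WT range and the other replicates above all other livers. The difference from WT was 0.54 ± 0.28 (adjusted p = 0.337, edgeR).

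Nars2 (mitochondrial asparagine) stood at 26.35, 35.5 and 38.6 CPM in WT and 23.1, 15.5 and 37.6 in AEG1_MYC. Sars2 (mitochondrial serine) stood at 10.1, 11.4 and 11.75 CPM in WT and 6.71, 6.79 and 11.5 in AEG1_MYC. For both genes replicates 1 and 2 were lower and replicate 3 lay within the WT range. Without AEG1_MYC replicate 3, edgeR called Nars2 (-0.78, adjusted p = 0.0493) and Sars2 (-0.70, adjusted p = 0.0324) against WT, in a fit that called 4.95% of all genes. The same fit called Nars2 against AEG1 (-0.81, adjusted p = 0.0456, 4.54% of all genes) and Sars2 against MYC (-0.66, adjusted p = 0.0439, 3.24% of all genes). Without AEG1_MYC replicate 2, Nars2 was at -0.14 against WT (adjusted p = 0.807) and -0.17 against AEG1. Without replicate 1, Sars2 was at -0.27 against WT and -0.23 against MYC. With all 12 libraries the values against WT were -0.40 ± 0.26 and -0.41 ± 0.20 (adjusted p = 0.450 and 0.318).

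**Figure D3:**
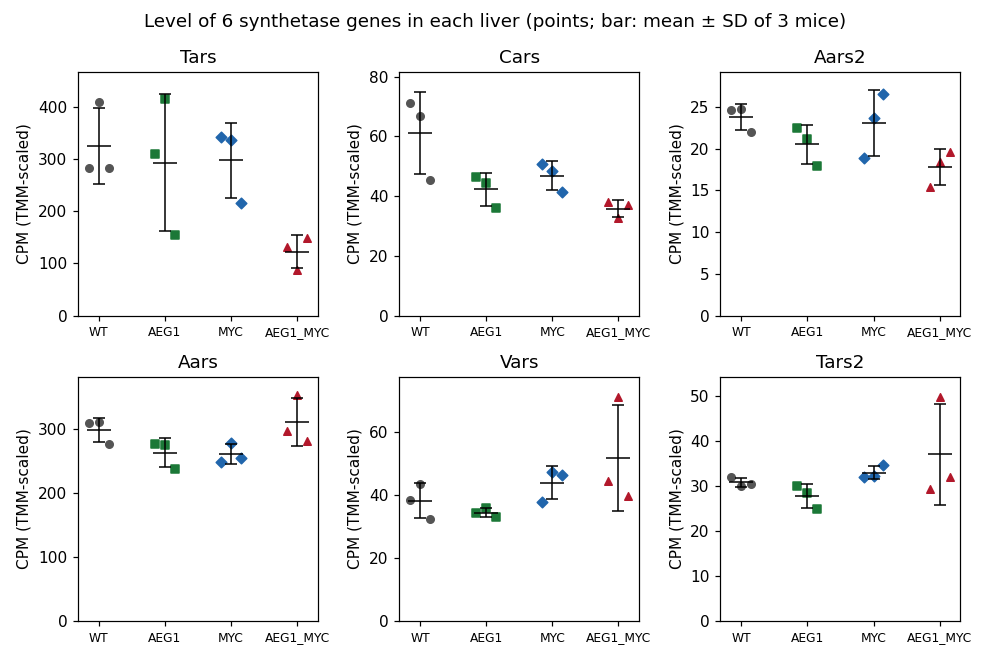
CPM of 6 synthetase genes in each liver (points), with the mean ± SD of 3 mice per genotype (bars), on linear axes from 0. The AEG1_MYC points of Tars lie below all others, those of Cars and Aars2 lie below WT, and AEG1_MYC replicate 2 is the highest point for Aars, Vars and Tars2.

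Aars, the alanine enzyme, differed little from WT in AEG1_MYC. WT livers had 309.5, 311 and 277 CPM of Aars and AEG1 livers 277, 276 and 237. MYC livers had 249.1, 279 and 255 CPM, and AEG1_MYC livers 297, 354 and 282. AEG1_MYC lay above AEG1 and above MYC without overlap, by 0.24 ± 0.12 and 0.25 ± 0.12 (adjusted p = 0.334 and 0.349, edgeR), and overlapped WT (0.06 ± 0.12). Gars (glycine) stood at 56.5, 49.3 and 49.3 CPM in AEG1 and 70.6, 57.7 and 63.9 in AEG1_MYC, higher without overlap by 0.31 ± 0.11 (adjusted p = 0.185). Vars also lay above AEG1 in each AEG1_MYC liver, by 0.59 ± 0.20 (adjusted p = 0.185). Without AEG1_MYC replicate 2 this was 0.29, and with 1 surrogate variable 0.0948. The same omission took the Aars differences from AEG1 and MYC to 0.13 and 0.15.

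AEG1_MYC against AEG1 addressed c-Myc on the AEG1 background. Without overlap Aars, Gars, Hars (histidine) and Vars were higher and Tars was lower, 5 of 36 members (13.9%) against 17.8% of all genes. In edgeR 0 members were called (0.322% of all genes), 5 had an unadjusted p under 0.05 (17.4% of all genes), DESeq2 called Tars alone (5.12% of all genes) and limma called 0 (0.424%). The median of the members was 0.03, with 20 higher and 16 lower (51.1% of all genes were higher).

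AEG1_MYC against MYC addressed AEG-1 on the MYC background, and here most members were lower. Myc itself also differed, at 23.4 to 53.8 CPM in MYC and 58.4 to 165 CPM in AEG1_MYC without overlap, and its part in these values was not tested. The log2 fold change was negative in 29 of 36, with a median of -0.12 against 0.01 over all genes, of which 51.3% were higher. Members share libraries, and without MYC replicate 3 their median was -0.067. Groups did not overlap in 10 members, 9 lower and 1 higher (27.8%, against 18.5% of all genes, and 8.85% lower without overlap). Rars2 differed by -0.48 ± 0.14 (adjusted p = 0.204, edgeR) and Tars by -1.28 ± 0.35. EdgeR called 0 members (0.205% of all genes), 7 had an unadjusted p under 0.05 (15.2% of all genes), DESeq2 called Tars (3.26% of all genes) and limma 0 (0.183%).

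The AEG-1 transgene by itself is seen in the comparison of AEG1 with WT. All 20 cytosolic members and 12 of 16 mitochondrial ones had a level below WT, with medians of -0.16 and -0.09 on the log2 scale, where 49.7% of all genes had a positive fold change and the median was 0.00 (-0.0018). The same 32 of 36 count was found with RLE and with upper-quartile scaling. Members share libraries, so the count is not 36 separate observations. WT replicate 3, with a median cytosolic level 0.17 below the WT mean (-0.17), lay lower than AEG1 replicates 1 and 2 (-0.08 and -0.14). AEG1 replicate 3 was the lowest at -0.20 and held the lowest level of the 12 livers for 10 of the 36 genes. Without WT replicate 2, in which 18 of 20 cytosolic members lay above the WT mean, 25 of 36 members were lower and their median moved from -0.15 to -0.07. Without AEG1 replicate 3 these were 27 of 36 and -0.09, and with limma 29 of 36 and -0.09.

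Groups did not overlap in AEG1 against WT for 6 members, all lower: Eprs, Hars, Kars (lysine), Lars (leucine), Sars2 and Tars2. They make 16.7% of the 36, against 10.7% of all genes in either direction and 5.53% lower. Kars stood at 58.7, 65.4 and 57.7 CPM in WT and 50.05, 53.9 and 51.1 in AEG1, then 54.5, 60.7 and 66.1 in MYC and 52.7, 62.15 and 58.6 in AEG1_MYC. Hars stood at 43.2, 48.3 and 42.4 CPM in WT and 39.8, 36.6 and 39.9 in AEG1, then 39.9, 40.7 and 45.6 in MYC and 46.65, 43.3 and 43.0 in AEG1_MYC. For both genes AEG1 lay below WT, while MYC and AEG1_MYC reached into the WT range. Lars stood at 51.9, 58.7 and 61.1 CPM in WT and 49.5, 43.8 and 51.0 in AEG1, then 48.1, 48.7 and 53.9 in MYC and 44.9, 53.5 and 42.5 in AEG1_MYC. Sars2 stood at 9.48, 8.40 and 7.61 CPM in AEG1 and at 9.84, 11.2 and 11.02 in MYC, with WT as given above. The log2 fold changes in AEG1 were -0.23 ± 0.10 for Kars, -0.20 ± 0.09 for Hars, -0.25 ± 0.11 for Lars and -0.38 ± 0.20 for Sars2. For Tars2 the nearest livers were WT replicate 2 (30.13 CPM) and AEG1 replicate 1 (30.06 CPM). Each of these had an adjusted p of 0.9997 in edgeR. No member was called by edgeR (0 of 36, and 0% of all genes), DESeq2 (0, where 0.11% of all genes were) or limma (0, and 0%), and 4 members had an unadjusted p under 0.05 (11.1%, against 3.92% of all genes).

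With the c-Myc transgene by itself, the synthetases as a group lay close to WT. The median log2 fold change was 0.03 over the 36, with 22 higher and 14 lower (49.4% of all genes were higher). Without MYC replicate 3 the median was -0.0082. Cytosolic members were split, 9 higher and 11 lower with a median of -0.01, and 13 of 16 mitochondrial members were higher, with a median of 0.07. The 1 member without overlap, Tars2, was separated by 31.97 CPM in WT replicate 1 and 31.98 CPM in MYC replicate 1, with a difference of 0.10 ± 0.17 (adjusted p = 0.999, edgeR). That is 2.78% of the members, against 11.6% of all genes. EdgeR called 0 members (0% of all genes), 1 had an unadjusted p under 0.05 (3.47% of all genes), and DESeq2 (0.205% of all genes) and limma (0%) called 0. Vars and Mars2 had log2 fold changes of 0.20 ± 0.20 (95% interval -0.24 to 0.64) and 0.32 ± 0.28 (-0.29 to 0.93), and Tars -0.13 ± 0.34 (-0.89 to 0.62).

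**Figure D4:**
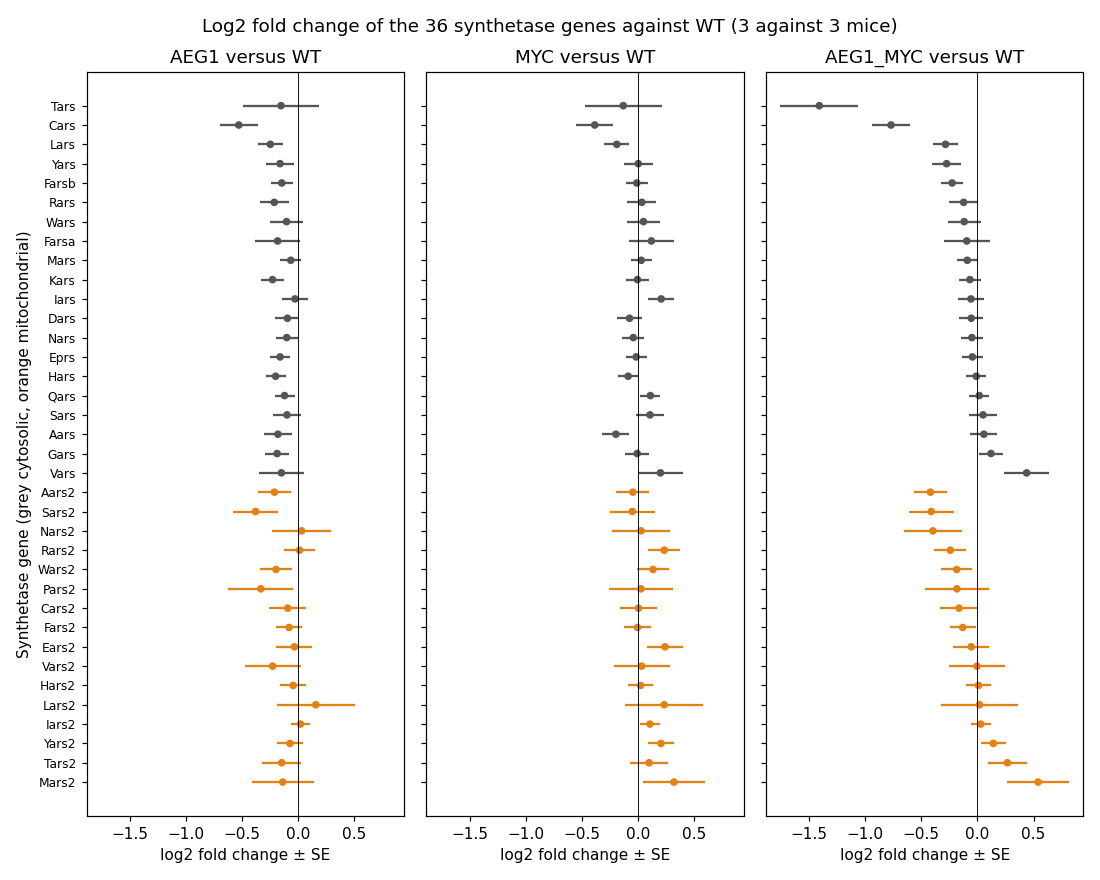
Log2 fold change against WT (points) with its SE (lines) for the 36 synthetase genes in AEG1, MYC and AEG1_MYC, cytosolic genes in grey and mitochondrial genes in orange, ordered by the AEG1_MYC value within each class. The 20 cytosolic points lie left of 0 in AEG1, most points lie near 0 in MYC, and Tars at -1.41 and Cars at -0.77 lie farthest left in AEG1_MYC.

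Over both backgrounds, carriers of c-Myc (6 mice) were compared with non-carriers (6 mice). Differences in 24 of 36 members were positive (50.6% of all genes), with a median of 0.05, and 0 members were without overlap (1.08% of all genes). Tars was at -0.69 ± 0.24 and Vars at 0.40 ± 0.14 (adjusted p = 0.341 and 0.353, edgeR). EdgeR called 0 members (0.11% of all genes), 5 had an unadjusted p under 0.05 (11.1% of all genes), and DESeq2 (2.23%) and limma (0.285%) called 0. For AEG-1 carriers against non-carriers 32 of 36 were negative (51.2% of all genes were positive), with a median of -0.13, and 0 were without overlap (0.263% of all genes). EdgeR called 0 members (0.0512% of all genes), 8 had an unadjusted p under 0.05 (22.2%, against 9.43% of all genes), and DESeq2 (0.672%) and limma (0.0512%) called 0. Cars was -0.46 ± 0.12 in AEG-1 carriers (adjusted p = 0.441, edgeR) and Tars -0.72 ± 0.24 (adjusted p = 0.500). Both carrier values of Tars take in the same AEG1_MYC livers, at 122.6 ± 31.8 CPM. AEG1 livers were at 293 ± 131.4 CPM and MYC livers at 297.9 ± 71.5, beside 326.1 ± 73.0 in WT. Neither carrier value therefore describes a single transgene.

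The interaction of the transgenes is the AEG-1 effect on the MYC background minus that on the WT background. Aars (0.44 ± 0.17), Rars2 (-0.49 ± 0.20), Tars (-1.13 ± 0.49) and Hars (0.28 ± 0.13) had the lowest p, with adjusted p values of 0.495, 0.503, 0.520 and 0.539 in edgeR. EdgeR called 0 members (0.0219% of all genes), 3 had an unadjusted p under 0.05 (9.25% of all genes), and DESeq2 (1.11%) and limma (0.0365%) called 0. Of the 36, 20 were positive and 16 negative (51.1% of all genes were positive). A difference between the backgrounds was therefore not shown for any member.

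Members of 1 enzyme or complex were compared next. The level of Farsa per kb was 0.566 ± 0.0933 of that of Farsb in WT and 0.556 ± 0.0945 in AEG1, then 0.624 ± 0.0412 in MYC and 0.628 ± 0.124 in AEG1_MYC, and the genotypes overlap. Farsa stood at 21.96, 31.4 and 18.8 CPM in WT and 24.9, 21.3 and 17.3 in AEG1, then 22.9, 28.3 and 27.2 in MYC and 21.8, 26.35 and 19.3 in AEG1_MYC. Farsb stood at 49.8, 54.1 and 42.6 CPM in WT and 44.0, 45.4 and 42.8 in AEG1, then 46.1, 51.1 and 48.2 in MYC and 43.9, 39.7 and 41.6 in AEG1_MYC. In AEG1_MYC against WT, Farsa differed by -0.10 ± 0.20 and Farsb by -0.23 ± 0.10 (adjusted p = 0.833 and 0.269, edgeR). The 8 genes of the multisynthetase complex had a median log2 fold change of -0.14 in AEG1, 0.01 in MYC and -0.06 in AEG1_MYC against WT, with 8, 4 and 7 of them lower. The 12 other cytosolic genes had medians of -0.16, -0.01 and -0.07.

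In 13 cases a cytosolic gene and a mitochondrial gene serve the same amino acid under the same name. Both were lower than WT in 9 of the 13 pairs in AEG1 and in 4 in AEG1_MYC, and both were higher in 6 pairs in MYC and in 0 in AEG1_MYC. All 20 cytosolic members were lower in AEG1, so the 9 there counts only the mitochondrial partners that were lower. It does not show that the genes of a pair moved together. In AEG1_MYC the threonine pair had opposite signs, at -1.41 ± 0.35 for Tars and 0.27 ± 0.17 for Tars2. The Tars2 value rests on AEG1_MYC replicate 2, as the other 2 livers (29.3 and 32.0 CPM) lay just below and just above the WT range (30.13 to 31.97 CPM). The alanine pair was at 0.06 ± 0.12 for Aars and -0.42 ± 0.15 for Aars2. Summed over genes, the cytosolic members took 1888 ± 174.7 CPM in WT and 1690 ± 169.5 in AEG1, then 1815 ± 53.1 in MYC and 1634 ± 32.0 in AEG1_MYC. The mitochondrial sums were 602 ± 54.1, 608.9 ± 70.5, 662.5 ± 111.7 and 591 ± 46.6 CPM in the same order. Lars2 alone held 221.8 ± 44.7, 247.1 ± 89.5, 261 ± 122.8 and 224.7 ± 12.45 CPM of these, so the sums largely follow that gene. Cytosolic sums of AEG1_MYC (1600 to 1663 CPM) lay below those of WT (1734 to 2078) without overlap, and Tars alone went from 326 ± 73.0 to 122.6 ± 31.8 CPM between those genotypes.

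**Figure D5:**
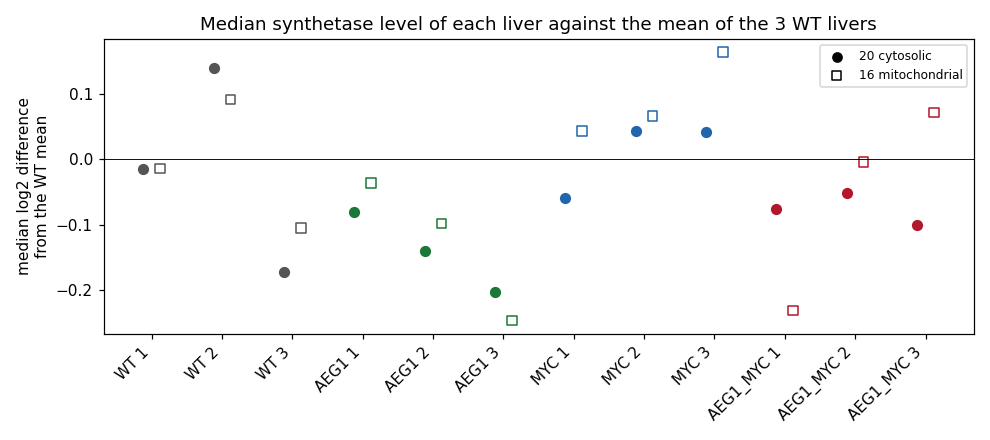
Median log2 difference from the mean of the 3 WT livers over the 20 cytosolic (filled circles) and 16 mitochondrial (open squares) synthetase genes, 1 pair of points per liver. WT livers span -0.17 to 0.14 for cytosolic genes, and the AEG1 livers lie at -0.20 to -0.08.

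The list of other genes of tRNA charging holds 24 genes, of which 23 were tested, among them the complex scaffolds, the proofreading enzymes and the enzymes of mitochondrial glutamine and selenocysteine tRNA. In edgeR 0 of these were called in any of the 8 comparisons. At an unadjusted p under 0.05 were 0 in AEG1, 0 in MYC and 2 (8.70%) in AEG1_MYC against WT, where 3.92%, 3.47% and 17.2% of all genes were. These 2 were Prorsd1 (-0.37 ± 0.14) and Pet112l (0.33 ± 0.14), the latter a subunit of the mitochondrial glutamine amidotransferase. The scaffolds Aimp1, Aimp2 and Eef1e1 had log2 fold changes of 0.19 ± 0.12, 0.24 ± 0.20 and 0.29 ± 0.23 in AEG1_MYC against WT, with adjusted p values of 0.458, 0.544 and 0.530 (edgeR). Of 20 genes of RNA polymerase III and its factors, which transcribe tRNA genes, 0 were called in edgeR in any comparison, and 3 (15%, against 17.2% of all genes) had an unadjusted p under 0.05 in AEG1_MYC against WT.

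Of 30 genes of the integrated stress response, 27 were tested and 0 were called in edgeR in any comparison. In AEG1_MYC against WT 19 of the 27 were higher, with a median of 0.20, and 9 had an unadjusted p under 0.05 (33.3%, against 17.2% of all genes). Of these 9, 8 were higher and 1 was lower. Groups did not overlap for 7 higher genes and 1 lower gene of the list (29.6%, against 19.5% of all genes). The 7 were Atf3, Ddit3, Eif4ebp1, Pycr1, Sesn2, Slc7a5 and Vldlr, and the lower gene was Atf5. Eif4ebp1 stood at 24.9 to 28.7 CPM in WT and 37.7 to 44.2 in AEG1_MYC. Sesn2 stood at 5.74 to 8.39 and 10.25 to 13.45 CPM. For Ddit3 the nearest livers were at 8.31 CPM (WT) and 8.35 CPM (AEG1_MYC). Atf4 itself stood at 114 ± 20.6 CPM in WT and 97.4 ± 8.57 in AEG1_MYC (-0.23 ± 0.24, adjusted p = 0.635). Slc7a5, a carrier of large neutral amino acids, was at 2.53 ± 0.836 CPM in WT and 8.29 ± 4.23 in AEG1_MYC (1.71 ± 0.36, adjusted p = 0.0921 in edgeR and 0.000713 in DESeq2). Without AEG1_MYC replicate 3 edgeR called it (adjusted p = 0.0224), and without replicate 2 its value was 1.20. Nupr1, a stress-induced chromatin protein, stood at 2.32, 0.995 and 0.512 CPM in WT and 9.25, 15.5 and 1.48 in AEG1_MYC (2.75 ± 0.75, adjusted p = 0.140), with AEG1_MYC replicate 3 inside the WT range. Atf5, a transcription factor of the same response, stood at 630.6, 751 and 511 CPM in WT and 348, 164 and 345 in AEG1_MYC, lower without overlap (-1.14 ± 0.29, adjusted p = 0.124). Asns, asparagine synthetase, was at -1.18 ± 1.063 (adjusted p = 0.583), with WT at 5.70, 0.115 and 0.470 CPM.

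Beside the AEG1_MYC values, 5 proliferation markers summed to 24.5 to 51.1 CPM in AEG1_MYC, 3.64 to 15.1 in WT, 4.55 to 13.6 in AEG1 and 9.19 to 13.5 in MYC, and all 5 had reads in every genotype. The 6 macrophage markers summed to 81.7 to 524 CPM in AEG1_MYC and 110.6 to 362 in WT. The 5 stellate cell markers summed to 68.7 to 104 CPM in AEG1_MYC, 102 to 138 in WT and 151 to 179.9 in AEG1. The part of these in the synthetase values was not tested. Of 8 markers of pancreatic acinar cells, 3 had reads in WT, AEG1 and MYC and 4 in AEG1_MYC, summing to 36.5 to 58.7 CPM in WT and 14.97 to 42.9 in AEG1_MYC, while Cpa1, Cpb1 and Amy2a5 had 0 reads in every library.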

How the data were processed

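Liver RNA of 12 mice was sequenced with Illumina TruSeq RNA libraries, per the labels' protocols. Each library has 1 file of whole-number counts that the authors deposited, with 1 value a gene. Per the submitters' processing notes these came from CASAVA 1.8.2, TopHat2 2.0.7, HTSeq and build mm9, while annotation and strand setting are not given in the sources used here. Reads classed as ambiguous between genes were outside the gene counts, which can lower genes that overlap others. How far this touched the synthetase genes cannot be told. Alignments at several places, 46.5% to 58.0% of the total, were outside the gene counts, which can lower genes with near-identical copies.

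In R 4.3.3, edgeR 4.0.16 filtered genes with filterByExpr, scaled libraries by TMM (factors 0.914 to 1.19), fitted 1 coefficient per genotype over 12 libraries and tested each contrast by quasi-likelihood F with the robust option. P values were Benjamini-Hochberg adjusted over 13684 genes and called under 0.05. SE is the log2 fold change divided by the root of F, and intervals use the fit's degrees of freedom. Each gene had 1 dispersion for all 4 genotypes. SE and intervals of AEG1 or MYC against WT therefore take in the spread between AEG1_MYC livers. No 2 libraries of a genotype agreed within sampling noise. The test was run on simulated data with the same spread in all genes and genotypes, which does not cover the wider spread between AEG1_MYC livers. Coding lengths are the longest in GENCODE M21 (another build, used for lengths only) and were found for 36 members.

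Members, lists and rules were chosen with earlier results of these data known. Named with all values were members called, up to 4 non-overlapping members of lowest p each way against WT, 4 of lowest p for the interaction, Farsa, Farsb and the highest and lowest per kb (Tars, Vars, Lars2, Mars2). Other members named were chosen after their values were seen. Alternatives were RLE and upper-quartile scaling, 2 other filters, no robust step, DESeq2 1.42.0, limma 3.58.1 with quality weights, 1 surrogate variable (sva 3.50.0), a clock score, fewer libraries and a threshold of 0.1.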

Additional observations from a re-analysis of the deposited data

How the results depend on the processing

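EdgeR called 0 of the 36 synthetases in each of the 8 comparisons, and 0 remained under RLE and upper-quartile scaling, both other filters, no robust step, limma, 1 surrogate variable, the clock score and the 6 compared libraries alone. At an adjusted p under 0.1, 1 member (Cars) was called in AEG1_MYC against WT (1% of all genes). DESeq2 called 2 there (4.76% of all genes), and 1 each in AEG1_MYC against AEG1 (5.12%) and against MYC (3.26%). Leaving out each library in turn gave 0 to 2 called members against WT, 0 to 1 against AEG1 and 0 to 1 against MYC, each time above 0 only without AEG1_MYC replicate 3. That fit called 4.95%, 4.54% and 3.24% of all genes, in the same order. Median fold changes of the members moved by less than the 0.0882 between replicates (SD) in each setting run. Several of these medians were themselves smaller than that SD, and signs turned within it. Without single libraries the median ran from -0.0082 to 0.089 in MYC and from -0.13 to 0.00073 in AEG1_MYC against WT. For the interaction it ran from -0.033 to 0.075. No paired analysis was possible because replicate numbers were given in accession order.

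Signs turned in the settings below, also for differences of 0.54 (Mars2), 0.44 (Vars), -0.40 (Nars2) and -0.41 (Sars2) in AEG1_MYC against WT, and the cause was not tested. Farsb in MYC against WT was 0.00029 with upper-quartile scaling, 0.0038 with the CPM filter and 0.011 with limma. Limma also gave Lars2 -0.043 and Tars 0.10 in AEG1, Tars 0.0075 in MYC and Aars -0.0049 in AEG1_MYC against WT. With 1 surrogate variable Lars2 was -0.016, Vars -0.062, Aars -0.10 and Nars2 0.18 in AEG1_MYC against WT, Nars2 0.13 and Sars2 0.28 against AEG1, and Nars2 0.0815 against MYC. With the clock score Farsa was 0.043 and Atf4 0.075 in AEG1_MYC against WT. Without AEG1_MYC replicates 1 and 2, which leaves 1 library assumed to vary like the other genotypes, Mars2 was -0.10, Aars -0.078, Nars2 0.17 and Sars2 0.055 against WT, Nars2 0.15 and Sars2 0.44 against AEG1, and Nars2 0.15 and Sars2 0.10 against MYC. The call of Myc in AEG1_MYC was lost with the 6 compared libraries alone (4.91, adjusted p = 0.128, edgeR).

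Without single libraries, values against WT ran from -0.33 to 0.043 (Farsa), -0.16 to 0.36 (Lars2) and -0.49 to 0.16 (Tars) in AEG1, from -0.021 to 0.35 (Farsa), -0.092 to 0.066 (Farsb), -0.12 to 0.55 (Lars2) and -0.23 to 0.067 (Tars) in MYC, and from -0.24 to 0.14 (Farsa), -0.13 to 0.12 (Lars2) and -0.046 to 0.14 (Aars) in AEG1_MYC. Sars2 in AEG1_MYC against AEG1 ran from -0.32 to 0.11. Tars and Cars in AEG1_MYC against WT ran from -1.57 to -1.22 and from -0.94 to -0.63. Counts per member and library were 57 or more, lowest for Mars2 (57 to 211), and the part of depth in the spread was not tested.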
